A study of Homo sapiens with 24 samples.

Results

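The IgLON family is a set of 5 cell surface proteins, and its 5 genes, NEGR1, OPCML, LSAMP, NTM and IGLON5, were followed here across all 8 groups of a knockdown experiment. The cells were SBC-3, a line from human small cell lung cancer. They were chosen by symbol among the 60605 genes counted in each library, and their spans were read from the coordinates of the deposited gene table (hg38). All 5 were among the 15869 genes that passed the expression filter and were tested. Antisense oligonucleotides (ASOs) or small interfering RNAs (siRNAs) were given at 10 nM by reverse transfection with Lipofectamine RNAiMAX, and poly(A)-selected RNA was sequenced 72 h later. SFPQ was targeted with siSFPQ-2 or siSFPQ-3 and NONO with siNONO-3 or siNONO-4, against the control siRNA siCtrl, and NEAT1 was targeted with ASO-NEAT1-1047 or ASO-NEAT1-1473, against the control ASO-Ctrl. All groups shared the line's own genotype, labelled WT, the transfection and the time point, and each had 3 libraries. The labels do not state whether libraries of 1 group were grown as separate cultures. The p-values therefore rest on library-to-library spread that may be technical.

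IgLON proteins carry immunoglobulin domains, are held on the outer face of the plasma membrane by a glycosylphosphatidylinositol (GPI) anchor and bind each other as homodimers and heterodimers. They are best known from neurons, where they act in neurite outgrowth and synapse formation, and OPCML is also known as a tumour suppressor that is often silenced in carcinomas. SFPQ and NONO are RNA-binding proteins of paraspeckles, nuclear bodies that assemble on the long noncoding RNA NEAT1, and SFPQ is known to be needed for full-length transcription of very long genes in neurons.

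Total counts ran from 4243196 to 14886353 per library. SFPQ RNA averaged 208 ± 47.3 CPM in siSFPQ-2 and 223 ± 27.3 CPM in siSFPQ-3, against 1223 ± 40.2 CPM in siCtrl (SD, n = 3 each). CPM here are counts made comparable between libraries by depth and edgeR's TMM factors. NONO RNA averaged 69.2 ± 9.30 CPM in siNONO-3 and 70.1 ± 5.06 CPM in siNONO-4, against 399 ± 14.9 CPM in siCtrl (SD, n = 3 each). NEAT1 RNA averaged 297 ± 47.0 CPM in the libraries labelled ASO-NEAT1-1047 and 206 ± 25.5 CPM in those labelled ASO-NEAT1-1473, against 297 ± 85.8 CPM in ASO-Ctrl (SD, n = 3 each), and was not called lower (log2 fold change -0.26, 95% interval -0.693 to 0.167, edgeR adjusted p = 1). The labels' cell type was checked against markers: in siCtrl YAP1 averaged 407 CPM, SYP 17.2 CPM and NEUROD1 4.62 CPM, while CHGA averaged 0.0341 CPM and INSM1 and NCAM1 had no read. The neuroendocrine genes CHGA, INSM1 and NCAM1, which mark most small cell lung cancer, were thus at or near 0 in siCtrl.

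Of the 5 members, 4 lie in very long loci and 1 does not. OPCML spans 1117.5 kb on the minus strand at chr11:132414977-133532501, and NTM spans 966.3 kb on the plus strand of the same chromosome at chr11:131370478-132336822. LSAMP is the longest, with 1337.0 kb on the minus strand at chr3:115802363-117139389, and NEGR1 spans 886.6 kb on the minus strand at chr1:71395943-72282539. IGLON5 spans 19.2 kb on the plus strand at chr19:51311644-51330891. The exonic length was 7565 bases for OPCML, 6956 for NTM, 10286 for LSAMP, 13208 for NEGR1 and 3347 for IGLON5. Exons thus made up 1.49% of the NEGR1 span and 0.677% of the OPCML span. The longest stretch between exons was 588.5 kb in OPCML, 563.7 kb in LSAMP, 248.5 kb in NTM, 181.4 kb in NEGR1 and 10.1 kb in IGLON5.

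OPCML and NTM are close relatives, and their sequence bears on how reads can be assigned to them. Among the GENCODE 29 transcripts of the members, OPCML and NTM shared an identical run of 191 bases, which crosses an exon junction in each gene. All other pairs of members shared at most 23 bases and no word of 31 bases. Of the shared run, 170 bases are coding in both genes, starting at the start codon, which is in capitals here.
OPCML and NTM shared coding run: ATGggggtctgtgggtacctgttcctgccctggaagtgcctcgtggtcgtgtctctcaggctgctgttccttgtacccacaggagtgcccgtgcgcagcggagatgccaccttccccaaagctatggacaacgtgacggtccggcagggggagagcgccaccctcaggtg
In OPCML the run lies on the minus strand within chr11:132657317-132943113 and was present in 1 of 8 transcripts. In NTM it lies on the plus strand within chr11:131911461-132146284 and was present in 2 of 22 transcripts. A read that falls wholly inside this run maps to both genes equally well, and the treatment of such reads is not given in the sources used here, so a small part of the counts of OPCML and NTM could not be told apart.

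The starts of the members were compared because all 5 members fell on SFPQ knockdown. RefSeq (GRCh38.p14) gave promoter windows for OPCML, NTM, LSAMP and IGLON5, and the 250 bases before the start are used here. Shown are the start of each that opens the shared run or the single listed start, written 5' to 3' along the gene's strand. Capitals mark the GC box GGGCGG on either strand, a motif that 42.6% of all 35116 RefSeq windows of this length hold.
OPCML, internal start, minus strand, chr11:132943837-132944086: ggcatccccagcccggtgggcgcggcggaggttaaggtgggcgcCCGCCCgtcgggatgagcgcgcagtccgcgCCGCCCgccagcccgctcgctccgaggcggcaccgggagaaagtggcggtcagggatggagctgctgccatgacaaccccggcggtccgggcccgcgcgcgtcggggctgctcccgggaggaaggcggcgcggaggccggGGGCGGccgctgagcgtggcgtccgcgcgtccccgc
NTM, internal start, plus strand, chr11:131911086-131911335: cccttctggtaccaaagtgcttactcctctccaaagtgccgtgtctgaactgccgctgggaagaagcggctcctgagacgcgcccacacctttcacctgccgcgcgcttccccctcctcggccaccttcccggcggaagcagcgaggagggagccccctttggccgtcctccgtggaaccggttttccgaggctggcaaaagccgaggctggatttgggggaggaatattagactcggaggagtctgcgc
LSAMP, minus strand, chr3:116445488-116445737: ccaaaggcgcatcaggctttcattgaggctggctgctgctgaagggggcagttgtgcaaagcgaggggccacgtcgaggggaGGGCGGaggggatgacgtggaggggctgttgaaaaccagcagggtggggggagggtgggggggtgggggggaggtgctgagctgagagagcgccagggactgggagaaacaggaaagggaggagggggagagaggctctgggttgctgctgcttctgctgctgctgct
IGLON5, plus strand, chr19:51311394-51311643: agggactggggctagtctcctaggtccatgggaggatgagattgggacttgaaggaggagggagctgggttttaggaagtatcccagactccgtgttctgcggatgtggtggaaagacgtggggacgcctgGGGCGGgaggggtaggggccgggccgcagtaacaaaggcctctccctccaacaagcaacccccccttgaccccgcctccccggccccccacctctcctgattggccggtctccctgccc
The OPCML window held 41 CpG pairs and 3 GC boxes at 79.6% G and C, and 98.3% of all windows held fewer CpG pairs. The NTM window, which precedes the same coding run, held 19 CpG pairs and no GC box. The LSAMP window held 7 CpG pairs and the IGLON5 window 10, each with 1 GC box. The TATA box letters TATAAA, searched on both strands, were in none of these 4 windows, against 10.7% of all windows. Listed starts that are not shown differed. An NTM window at chr11:131909674-131909923 held TATAAA, while the remaining NTM windows did not. The OPCML window at the deposited gene start, chr11:133532502-133532751, held 9 CpG pairs, no GC box and no TATAAA. Of the windows shown, that of OPCML lies 588.7 kb, that of NTM 540.9 kb and that of LSAMP 693.9 kb inside the gene as deposited. The full spans above thus include far upstream exons. Which start SBC-3 cells use was not measured by these gene counts.

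In siCtrl cells OPCML was the most abundant member, and this order was measured per kb of exonic length because longer transcripts collect more reads. OPCML averaged 3.06 ± 0.379 CPM per kb, NTM 0.881 ± 0.228, NEGR1 0.455 ± 0.0555, IGLON5 0.396 ± 0.152 and LSAMP 0.101 ± 0.0989 CPM per kb in siCtrl (SD, n = 3 each). Neighbours in this order did not overlap between libraries except NEGR1 and IGLON5, whose ranges overlapped. OPCML had the highest mean per kb in 8 of 8 groups, and NTM came next in every group except siSFPQ-2 and siSFPQ-3, where IGLON5 did. With siSFPQ-2, OPCML and IGLON5 averaged 0.189 ± 0.0413 and 0.162 ± 0.0770 CPM per kb, and their ranges overlapped. LSAMP was the lowest member in every group except siSFPQ-3, where NEGR1 was lower by less than the spread between libraries. LSAMP and IGLON5 were supported by few reads, 227 and 293 in all 24 libraries, against 4128 for OPCML, 1239 for NTM and 930 for NEGR1, so their values are the least precise.

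**Figure D1:**
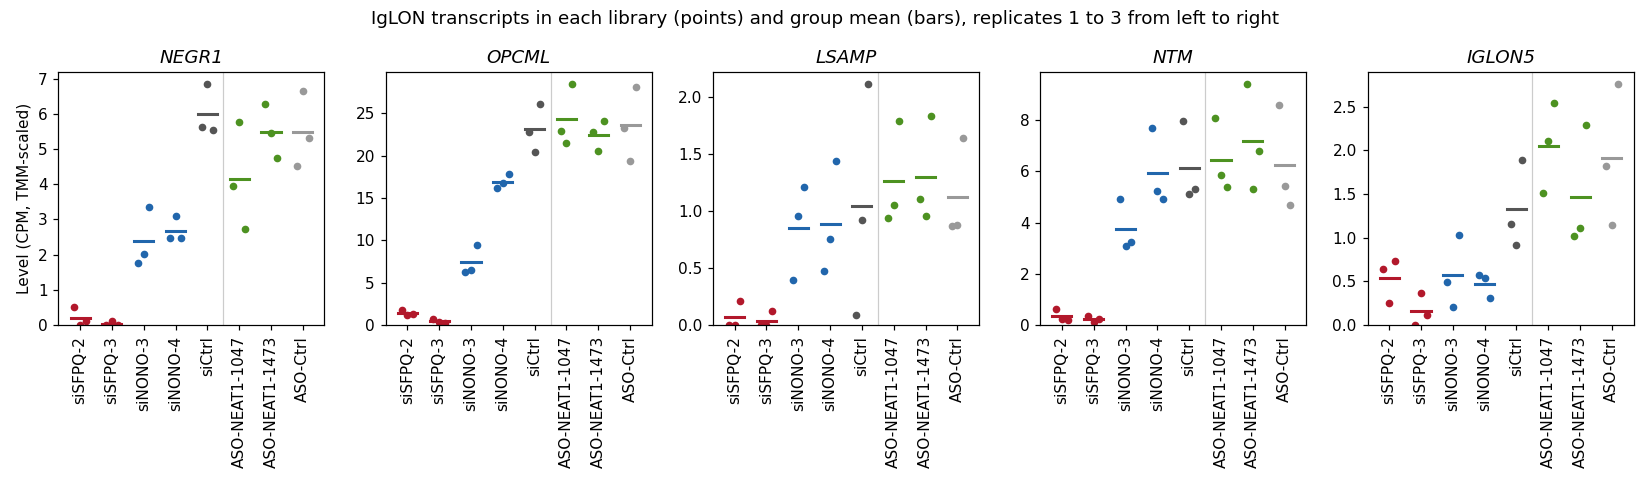
Level of each IgLON member in every library, in TMM-scaled CPM on a linear axis from 0, with points for libraries 1 to 3 of a group from left to right and a bar for the group mean. In the siSFPQ-2 and siSFPQ-3 libraries NEGR1, OPCML and NTM lie near 0, below every other library, while the ASO-NEAT1 groups overlap ASO-Ctrl for all 5 members.

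SFPQ knockdown lowered all 5 IgLON transcripts in the fit of all 24 libraries. When only the groups compared were fitted, LSAMP and IGLON5 fell below the expression filter, and the 3 members then tested were called. The fitted fall was deepest for NEGR1, OPCML, NTM and LSAMP, the members with spans of 886.6 kb or more, and smallest for IGLON5. The edgeR confidence intervals of LSAMP (-5.653 to -2.14) and IGLON5 (-3.125 to -1.023) overlapped, so these members were not separated. Those of NEGR1, OPCML and NTM lay wholly below that of IGLON5. Differences between members were not tested. Across all genes tested, 35.8% were called lower on SFPQ knockdown, which means an adjusted p (Benjamini-Hochberg) under 0.05 in edgeR's quasi-likelihood test on the mean of both siRNAs minus siCtrl. With siSFPQ-2 alone 4 of 5 fell (32.4% of all genes) and with siSFPQ-3 alone 5 of 5 (33.3%). In such bulk RNA, fewer cells that express a gene and less RNA of it per cell cannot be told apart.

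OPCML, which restrains receptor tyrosine kinases as a tumour suppressor, had 1.79, 1.24 and 1.26 CPM with siSFPQ-2 and 0.716, 0.368 and 0.241 CPM with siSFPQ-3, against 22.8, 20.5 and 26.2 CPM in siCtrl. All 6 siSFPQ libraries lay far below the lowest siCtrl library. The log2 fold change was -4.83 (SE 0.20, edgeR adjusted p = 9.76e-18), which put it at 3.51% of the siCtrl level. The siRNAs differed in depth for this gene: the level was higher with siSFPQ-2 than with siSFPQ-3 by 1.68 on the log2 scale (SE 0.46, edgeR adjusted p = 0.0132). OPCML was the only member called in that difference, against 14.7% of all genes called in either direction. The call was lost without siSFPQ-2 replicate 1 (edgeR adjusted p = 0.0705) or siSFPQ-3 replicate 3 (edgeR adjusted p = 0.0694). The uncalled values of NEGR1 (2.23) and IGLON5 (1.82) were larger but rest on few reads, so the difference is not shown to be particular to OPCML. When only these groups were fitted, 1 member passed the expression filter.

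NTM, or neurotrimin, which promotes adhesion between neurons, had 0.639, 0.248 and 0.210 CPM with siSFPQ-2 and 0.358, 0.123 and 0.241 CPM with siSFPQ-3, against 7.95, 5.11 and 5.32 CPM in siCtrl. The groups did not overlap. Its log2 fold change was -4.29 (SE 0.36, edgeR adjusted p = 3.64e-11), 5.10% of the siCtrl level.

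NEGR1, the neuronal growth regulator whose locus is associated with body weight, had 0.511, 0 and 0.105 CPM with siSFPQ-2 and 0, 0.123 and 0 CPM with siSFPQ-3, against 5.63, 6.85 and 5.54 CPM in siCtrl. In reads, the siSFPQ-2 group held 5 and the siSFPQ-3 group 1, against 206 in siCtrl. Scaled for depth, the 6 reads of both siSFPQ groups were 2.19% of the siCtrl level (95% counting interval 0.793 to 4.84), and 3 of the 6 libraries had none. The fitted log2 fold change was -5.73 (SE 0.42, edgeR adjusted p = 2.49e-12), and at so few reads its size depends on the prior count of the fit; without siSFPQ-3 replicate 2, which held the single read of its group, it was -6.80.

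LSAMP, the limbic system-associated membrane protein, had 0, 0 and 0.210 CPM with siSFPQ-2 and 0, 0 and 0.120 CPM with siSFPQ-3, against 0.089, 0.920 and 2.11 CPM in siCtrl. The ranges overlapped, because siCtrl replicate 1 held a single LSAMP read. Scaled for depth, the 3 reads of the siSFPQ groups were 5.78% of the level of the 39 siCtrl reads (95% counting interval 1.14 to 18.2). LSAMP was called (log2 fold change -3.90, SE 0.85, edgeR adjusted p = 0.000242), but 1 library moved the value by more than 1.5 times: it was -2.76 without siCtrl replicate 3 and -5.47 without siSFPQ-2 replicate 3, and with siSFPQ-2 alone the call was lost without siCtrl replicate 3 (edgeR adjusted p = 0.087).

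IGLON5, the short gene of the family and the target of autoantibodies in anti-IgLON5 disease, had 0.639, 0.248 and 0.734 CPM with siSFPQ-2 and 0, 0.368 and 0.120 CPM with siSFPQ-3, against 1.16, 0.920 and 1.89 CPM in siCtrl. All 6 siSFPQ libraries lay below the lowest siCtrl library. The log2 fold change was -2.07 (SE 0.51, edgeR adjusted p = 0.000773), 23.7% of the siCtrl level, and it was -2.72 without siSFPQ-3 replicate 2. With siSFPQ-3 alone IGLON5 fell (log2 fold change -2.98, edgeR adjusted p = 0.000516). With siSFPQ-2 alone it was not called (log2 fold change -1.16, 95% interval -2.31 to -0.021, edgeR adjusted p = 0.0688). It passed without siCtrl replicate 2 (edgeR adjusted p = 0.0467) or with the replicate number as a term (edgeR adjusted p = 0.0258). The difference between the siRNAs was not called for IGLON5 (1.82, 95% interval 0.039 to 3.60, edgeR adjusted p = 0.17).

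NONO knockdown had smaller fitted effects on the family, and fewer members were called. NEGR1, OPCML and IGLON5 fell and NTM and LSAMP were not called, so 3 of 5 were lower, against 9.96% of all genes tested. The edgeR confidence intervals of the called members ended at -0.749 (NEGR1), -0.77 (OPCML) and -0.448 (IGLON5). They overlapped those of NTM (-0.84 to 0.104) and LSAMP (-1.376 to 0.731). The calls therefore do not show that the members differed, and differences between members were not tested. With siNONO-3 alone NEGR1 and OPCML fell (10.9% of all genes did), and with siNONO-4 alone NEGR1 did (5.94%). NEGR1 had 1.78, 2.02 and 3.36 CPM with siNONO-3 and 2.47, 3.11 and 2.46 CPM with siNONO-4, against 5.63, 6.85 and 5.54 CPM in siCtrl. All 6 siNONO libraries lay below every siCtrl library, and the log2 fold change was -1.24 (SE 0.24, edgeR adjusted p = 0.000511). NEGR1 was called with siNONO-3 alone and with siNONO-4 alone (log2 fold changes -1.31 and -1.16, edgeR adjusted p = 0.00157 and 0.00795).

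OPCML fell by 1.05 on the log2 scale (SE 0.14, edgeR adjusted p = 3.37e-06), with 6.22, 6.48 and 9.51 CPM under siNONO-3 and 16.2, 16.7 and 17.9 CPM under siNONO-4, against 22.8, 20.5 and 26.2 CPM in siCtrl. The groups formed separate steps with no overlap. The siRNAs differed by -1.19 (siNONO-3 minus siNONO-4, SE 0.17, edgeR adjusted p = 3.32e-05), and OPCML was the only member called in that difference, against 10% of all genes. With the replicate number as a term in the fit, NTM was called in it as well (-0.66, edgeR adjusted p = 0.00886). NONO RNA itself stood at 69.2 and 70.1 CPM with siNONO-3 and siNONO-4. These counts do not measure NONO protein, and the cause of the OPCML difference was not tested. With siNONO-4 alone OPCML was not called (log2 fold change -0.45, edgeR adjusted p = 0.0588). It was called when only the groups compared were fitted (edgeR adjusted p = 0.035) or when genes with low counts were kept (edgeR adjusted p = 0.034). The replicate number as a term had the same effect (edgeR adjusted p = 0.00558).

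IGLON5 had 0.494, 0.212 and 1.03 CPM with siNONO-3 and 0.570, 0.536 and 0.308 CPM with siNONO-4, against 1.16, 0.920 and 1.89 CPM in siCtrl. One siNONO-3 library lay inside the siCtrl range. It was called in the mean of both siRNAs (log2 fold change -1.34, SE 0.44, edgeR adjusted p = 0.0323) but with neither alone (edgeR adjusted p = 0.106 with siNONO-3 and 0.0728 with siNONO-4). With siNONO-3 it passed without siNONO-3 replicate 3 (edgeR adjusted p = 0.0472), and with siNONO-4 when low-count genes were kept (edgeR adjusted p = 0.0412). With the replicate number as a term it passed with siNONO-3 and with siNONO-4 (edgeR adjusted p = 0.0392 and 0.0228). The call did not survive the removal of any 1 of siCtrl replicates 1 or 3, siNONO-3 replicates 1 or 2 or siNONO-4 replicate 3 (edgeR adjusted p 0.0522 to 0.217).

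NTM had 4.94, 3.08 and 3.26 CPM with siNONO-3 and 7.69, 5.26 and 4.92 CPM with siNONO-4, against 7.95, 5.11 and 5.32 CPM in siCtrl, and was not called (log2 fold change -0.37, 95% interval -0.84 to 0.104, edgeR adjusted p = 0.293). With siNONO-3 alone NTM stood at -0.70 (edgeR adjusted p = 0.0743). It passed when low-count genes were kept (edgeR adjusted p = 0.0275), without siNONO-3 replicate 1 (edgeR adjusted p = 0.0383) or with the replicate number as a term (edgeR adjusted p = 0.00246). LSAMP, with 0.395, 0.955 and 1.21 CPM under siNONO-3 and 0.475, 0.751 and 1.44 CPM under siNONO-4, overlapped siCtrl (log2 fold change -0.32, 95% interval -1.38 to 0.731, edgeR adjusted p = 0.718). Single siCtrl libraries set the sign of that value, which was -0.84 without siCtrl replicate 1 and 0.82 without siCtrl replicate 3. That interval is wide enough to include a change of the size seen for NEGR1. In NTM, library 1 was the highest of its group in 8 of 8 groups, and in LSAMP library 3 was.

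Set against each other, SFPQ knockdown left 4 of 5 members lower than NONO knockdown did, against 38.4% of all genes tested. When only the groups compared were fitted, LSAMP and IGLON5 fell below the expression filter, and 3 members were tested. The log2 difference, SFPQ minus NONO, was -4.49 for NEGR1 (SE 0.45), -3.93 for NTM (SE 0.34), -3.78 for OPCML (SE 0.20) and -3.57 for LSAMP (SE 0.82), with edgeR adjusted p of 0.000325 or less. Single libraries with few reads moved the size of 2 of these: NEGR1 was at -5.57 without siSFPQ-3 replicate 2, and LSAMP at -5.14 without siSFPQ-2 replicate 3. IGLON5 did not differ by this test (-0.73, 95% interval -1.84 to 0.376, edgeR adjusted p = 0.221). Both comparisons share the siCtrl libraries, which cancel in this difference.

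**Figure D2:**
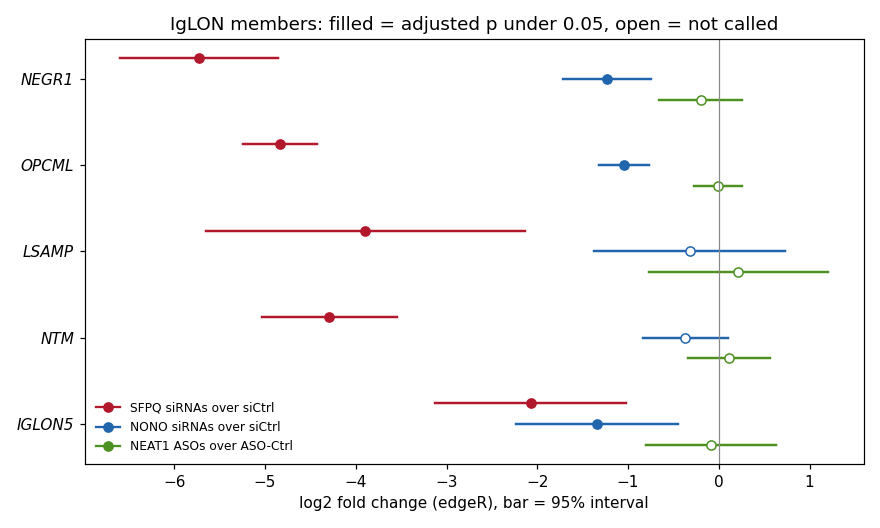
Log2 fold change of each IgLON member with its 95% interval from edgeR, for the SFPQ siRNAs over siCtrl, the NONO siRNAs over siCtrl and the NEAT1 ASOs over ASO-Ctrl. Filled points passed an adjusted p of 0.05: all 5 members for SFPQ, NEGR1, OPCML and IGLON5 for NONO, and none for the NEAT1 ASOs.

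In the libraries labelled ASO-NEAT1 no member was called, as no gene was (0% of 15869 by edgeR and 0 by DESeq2, with 353 at an unadjusted p under 0.05). OPCML had 22.9, 21.5 and 28.5 CPM with ASO-NEAT1-1047 and 22.8, 20.5 and 24.1 CPM with ASO-NEAT1-1473, against 23.3, 19.4 and 28.1 CPM in ASO-Ctrl. Its log2 fold change was -0.01 with a 95% interval of -0.277 to 0.258, so a fall of the size seen with the NONO siRNAs lay outside that interval. The intervals of NEGR1 (-0.657 to 0.257), NTM (-0.342 to 0.566), IGLON5 (-0.805 to 0.632) and LSAMP (-0.771 to 1.20) were wider, and all of them covered 0. NEAT1 RNA was not called lower in these libraries, but the 95% interval of its log2 fold change (-0.693 to 0.167) includes a partial fall. These libraries therefore cannot show what a loss of NEAT1 does to the members. Between the ASOs, 0 of 5 members were called (0% of all genes by edgeR and by DESeq2, 505 at an unadjusted p under 0.05), and between the controls, ASO-Ctrl minus siCtrl, 0 of 5 (0.454% of all genes).

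The members' falls were set beside genes of similar span. With SFPQ knockdown, 60.5% of the 539 tested genes over 300 kb fell, with a median log2 fold change of -0.94, and 57.9% of the 57 genes as long as NEGR1 or longer fell, with a median of -1.25. The 57 genes include the 4 long members, and 1 of them lay lower than NEGR1, 2 lower than OPCML, 3 lower than NTM and 8 lower than LSAMP, other members included. Among the long members the fall did not grow with the deposited span. NEGR1, the shortest of the 4, had the lowest value, -5.73, and LSAMP, the longest, the highest, -3.90, both with few reads. The start windows shown above lie 588.7 kb (OPCML), 540.9 kb (NTM) and 693.9 kb (LSAMP) inside the deposited spans. Which start is used was not measured, so the order of the members by transcribed length is not known. IGLON5 belongs with the 4006 genes of 10 to 30 kb, of which 36.2% fell with a median of -0.04, and 635 of all 15869 genes lay lower than IGLON5. With NONO knockdown, 24.3% of genes over 300 kb and 29.8% of those as long as NEGR1 fell, with medians of -0.20 and -0.20, while 7.84% of genes of 10 to 30 kb did. Of all genes 196 lay lower than IGLON5 on NONO knockdown and 245 lower than NEGR1, and the values of these 2 members, -1.34 and -1.24, differed by less than their SE.

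**Figure D3:**
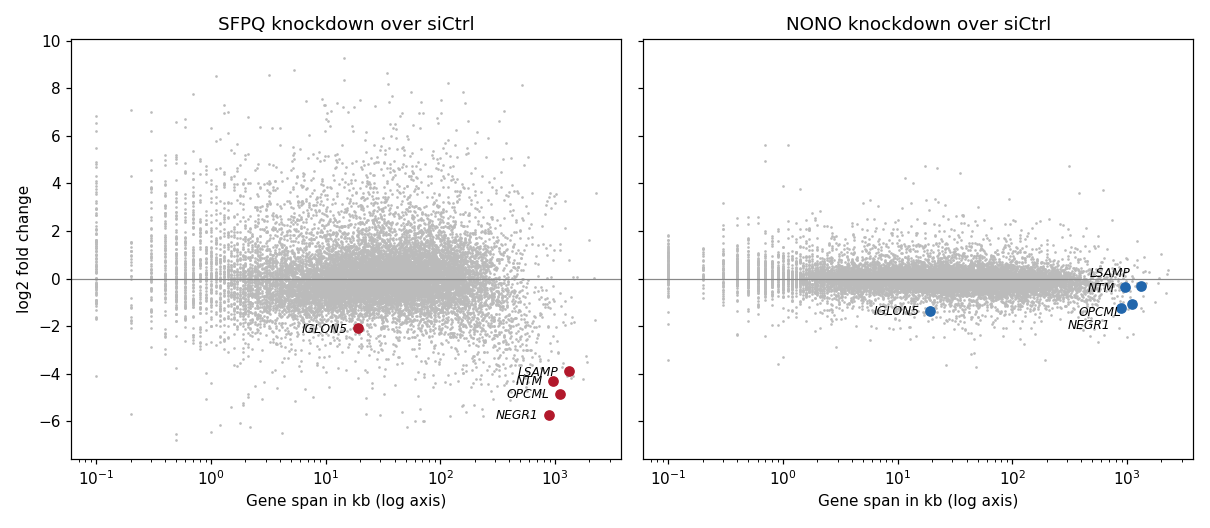
Log2 fold change against gene span in kb on a log axis, for SFPQ knockdown (left) and NONO knockdown (right) over siCtrl, with grey points for the 15869 tested genes and coloured points for the IgLON members. With SFPQ knockdown the 4 long members lie between -5.73 and -3.90 at the lower right edge of the cloud and IGLON5 at -2.07 among genes of about 19.2 kb; with NONO knockdown all 5 lie between -1.34 and -0.32.

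Transcripts counted within the long introns gave a second reading of these loci. OPCML overlapped 7 other annotated genes, LSAMP 12, NTM 8, NEGR1 5 and IGLON5 none. Whether counting used strand is not given in the sources used here, so reads of overlapping genes on opposite strands could not be told apart, and unspliced RNA of the host could be counted for a gene that lies in its intron on the same strand. OPCML-IT1, a transcript on the same strand in the 588.5 kb gap that follows the first OPCML exons, begins 166.4 kb from the OPCML start and held 1185 reads. It had 0.639, 0.496 and 0.315 CPM with siSFPQ-2 and 0.358, 0.737 and 0.361 CPM with siSFPQ-3, against 3.57, 5.93 and 6.56 CPM in siCtrl. It fell on SFPQ knockdown with no overlap between groups (log2 fold change -3.46, SE 0.37, edgeR adjusted p = 4.94e-09).

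On NONO knockdown OPCML-IT1 was not called, while OPCML fell. OPCML-IT1 had 3.85, 6.90 and 6.81 CPM with siNONO-3 and 4.56, 6.86 and 9.64 CPM with siNONO-4, which overlapped the siCtrl values (log2 fold change 0.25, 95% interval -0.265 to 0.766, edgeR adjusted p = 0.538). The log2 ratio of OPCML-IT1 to OPCML reads averaged -0.84 ± 0.66 in siNONO (SD, n = 6), against -2.14 ± 0.459 in siCtrl (SD, n = 3). It was -0.69, 0.09 and -0.48 with siNONO-3 and -1.82, -1.28 and -0.89 with siNONO-4, against -2.66, -1.78 and -1.99 in siCtrl, so that siNONO-4 reached into the siCtrl range and siNONO-3 did not. The difference of 1.30 between the means had an exact 2-sided permutation p of 0.0357, and 0.107 after adjustment over the 3 ratios compared, with 0.0119 as the smallest p that 84 splits allow. In siSFPQ the ratio averaged -0.65 ± 1.09 (SD, n = 6), 1.49 above siCtrl (exact permutation p = 0.0714, adjusted 0.107), with all siSFPQ-2 libraries below all siSFPQ-3 libraries. In ASO-NEAT1 it was -2.22 ± 0.344 (SD, n = 6), against -2.0 ± 0.311 in ASO-Ctrl (SD, n = 3, exact permutation p = 0.381). This ratio was chosen after the values of both genes were seen, and none of the 3 differences passed the adjustment. Each set of 6 libraries pools both reagents to a target, so its SD and permutation p mix differences between reagents with spread between libraries.

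**Figure D4:**
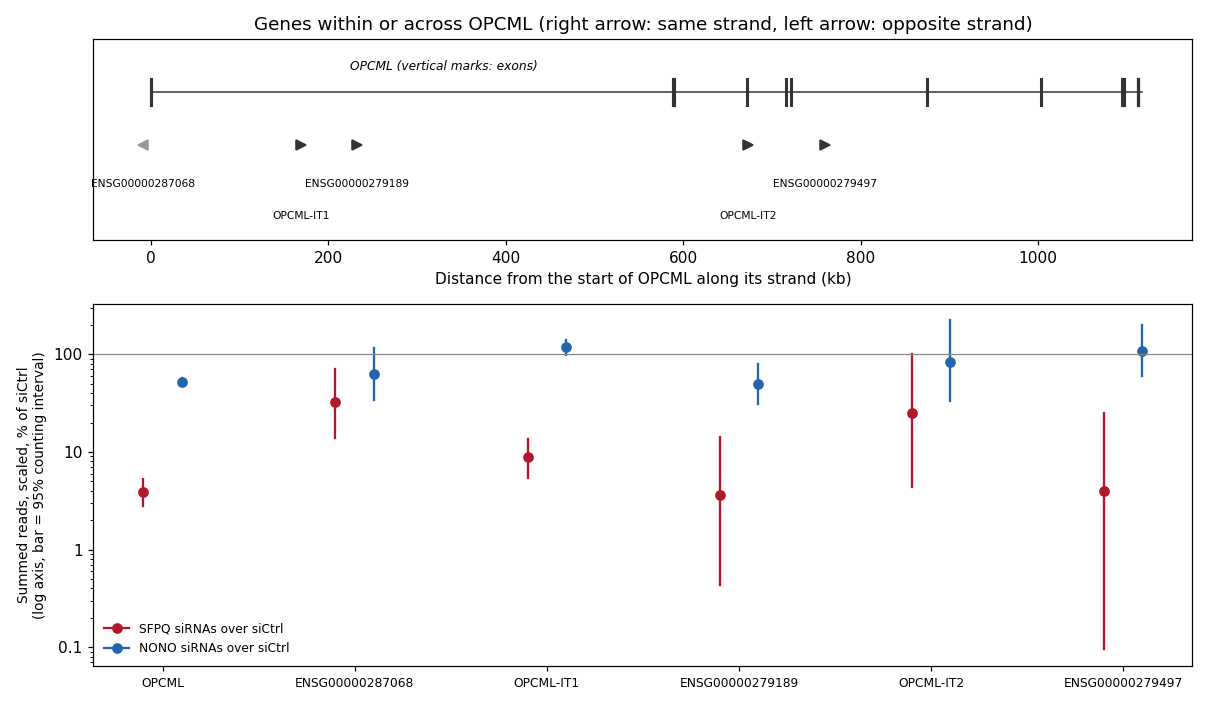
Top, OPCML drawn to scale in kb from its annotated start, with its exons and the overlapping genes that held over 9 reads; bottom, summed reads of OPCML and of each of these genes, scaled for depth, as a percentage of siCtrl on a log axis with 95% counting intervals. With the SFPQ siRNAs OPCML stood at 3.87% and OPCML-IT1 at 8.79%; with the NONO siRNAs OPCML stood at 51.8% and OPCML-IT1 at 118%.

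Of the 4 other tested genes that overlap a long member, 3 fell on SFPQ knockdown (35.8% of all genes did). ENSG00000279189, on the same strand 229.9 kb into OPCML, held 2 reads over the 6 libraries of the SFPQ siRNAs, while siCtrl held 41, which was 3.66% of the siCtrl level (95% counting interval 0.429 to 14.1), and it was called (edgeR adjusted p = 1.99e-06). The untested ENSG00000279497, 759.1 kb into OPCML on its strand, held 1 read with the SFPQ siRNAs, against 19 in siCtrl (3.95%, 95% counting interval 0.0951 to 24.9), and OPCML-IT2 held 3, against 9. ENSG00000287068, which crosses the OPCML start on the opposite strand, stood at 32.6% of siCtrl (13.9 to 71.3). ENSG00000285980, antisense to NTM, fell by 2.74 on the log2 scale (SE 0.75, edgeR adjusted p = 0.002). ZRANB2-DT, which runs 408.7 kb on the strand opposite NEGR1 and overlaps an exon of it, fell by 2.30 (SE 0.59, edgeR adjusted p = 0.00105). The gene that was not called was BZW1P2, a processed pseudogene on the LSAMP strand, with 268 reads in all: its log2 fold change was 0.06 (95% interval -0.641 to 0.766, edgeR adjusted p = 0.879). A pseudogene shares sequence with its parent gene, so these reads are uncertain. On NONO knockdown none of the 4 tested ones was called (edgeR adjusted p 0.0923 to 0.861).

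By likeness of pattern, measured as Pearson's r of log2 CPM over the 24 libraries with a prior count of 1, the nearest genes to NEGR1 were CDH11, ROBO2 and HIPK2 (r = 0.977 for each). EPHB2, CCDC26 and IFT172 were nearest to OPCML (r = 0.983, 0.982 and 0.982), and PGM1, FTO and ADCY2 to NTM (r = 0.981, 0.980 and 0.980). LSAMP came closest to FBXO36, JAKMIP3 and LINC02454 (r = 0.934, 0.928 and 0.926), and IGLON5 to AGER, DYSF and NOL4L (r = 0.926, 0.923 and 0.869). These r describe 24 libraries that share groups and depth, and the siSFPQ libraries stand apart in them, so they rank genes and test nothing. ROBO2, an axon guidance receptor gene of 1743.3 kb, fell with SFPQ knockdown by 4.24 (SE 0.11, edgeR adjusted p = 1.8e-21), and IFT172, with 45.4 kb, by 1.53 (SE 0.11, edgeR adjusted p = 1.59e-12). The members' own r with each other ran from 0.644 for NTM with IGLON5 to 0.959 for OPCML with NTM.

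Receptors and a protease that have been reported to act with IgLON proteins moved mostly the other way on SFPQ knockdown. Of 7 such genes 6 were tested, and 4 rose (34.7% of all genes did) and 1 fell, with a median log2 fold change of 0.61, against -0.02 over all genes. EPHA2, an ephrin receptor that OPCML is reported to inhibit, had 101 ± 12 CPM with siSFPQ-2 and 103 ± 5.94 CPM with siSFPQ-3, against 25.5 ± 2.11 CPM in siCtrl (SD, n = 3 each), a log2 fold change of 2.01 (SE 0.10, edgeR adjusted p = 3.15e-16). FGFR2, the fibroblast growth factor receptor reported to bind NEGR1 in mouse, rose by 2.11 (SE 0.13, edgeR adjusted p = 5.68e-14), and AXL rose by 0.93 (SE 0.11, edgeR adjusted p = 1.39e-08). FGFR1 rose by 0.30 (SE 0.10, edgeR adjusted p = 0.0087), with 42.9 ± 4.79 CPM in siSFPQ-2 and 67.0 ± 10.5 CPM in siSFPQ-3, against 43.7 ± 0.858 CPM in siCtrl (SD, n = 3 each), so that siSFPQ-2 lay at the siCtrl level; the call was lost without siSFPQ-3 replicate 3 (edgeR adjusted p = 0.0569) and when low-count genes were kept (0.0504). ERBB2 was the gene that fell, by 0.34 (SE 0.10, edgeR adjusted p = 0.00275; 0.0631 without library number 3 of each group).

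With NONO knockdown 1 of these 6 genes rose (7.47% of all genes did) and 3 fell, with a median of -0.17. EPHA2 rose by 0.96 (SE 0.10, edgeR adjusted p = 5.51e-08), while FGFR1 fell by 0.64 (SE 0.10, edgeR adjusted p = 3.34e-05). FGFR2 fell by 0.48 (SE 0.14, edgeR adjusted p = 0.0142; 0.0784 without siCtrl replicate 3), and ADAM10, the protease that sheds IgLON proteins from neurons in mouse, fell by 0.40 (SE 0.07, edgeR adjusted p = 0.000153). NCAM1, the remaining gene of the list, held 3 reads in all 24 libraries and was not tested.

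Among other adhesion genes of the immunoglobulin superfamily none was called lower on SFPQ knockdown. Of 31 such genes 10 were tested, and 5 rose (34.7% of all genes did) and none fell (35.8%), with a median log2 fold change of 0.50. MDGA1, a GPI-anchored adhesion protein, had 16.4 ± 1.40 CPM with siSFPQ-2 and 17.2 ± 1.70 CPM with siSFPQ-3, against 3.00 ± 0.262 CPM in siCtrl (SD, n = 3 each), a rise of 2.48 (SE 0.22, edgeR adjusted p = 1.12e-10). L1CAM, a neuronal adhesion gene, rose by 1.59 (SE 0.34, edgeR adjusted p = 0.000258), NECTIN1 by 0.81 (SE 0.16, edgeR adjusted p = 0.000138) and KIRREL1 by 0.48 (SE 0.08, edgeR adjusted p = 7.95e-06). CNTN5, a contactin, rose by 0.79 (SE 0.31, edgeR adjusted p = 0.0266), but that call was lost by DESeq2 (adjusted p = 0.068), when low-count genes were kept (edgeR adjusted p = 0.0918) and without any 1 of 5 libraries, siCtrl replicates 1 and 3, siSFPQ-2 replicates 2 and 3 and siSFPQ-3 replicate 3.

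With NONO knockdown none of the 10 rose (7.47% of all genes did) and 3 fell (9.96%), with a median of -0.43. CADM4, a nectin-like adhesion gene, fell by 1.25 (SE 0.22, edgeR adjusted p = 0.000222). CNTN5 fell by 1.25 (SE 0.36, edgeR adjusted p = 0.0162; 0.0815 without siCtrl replicate 2 and 0.0626 without siCtrl replicate 3) and IGSF9B by 1.11 (SE 0.34, edgeR adjusted p = 0.0236; 0.274 without siCtrl replicate 3, 0.0548 without siNONO-3 replicate 1 and 0.0531 without siNONO-4 replicate 3). Set against each other, SFPQ knockdown left 10 of 10 of these genes higher than NONO knockdown did, against 37% of all genes tested, although IGSF9B lost that call without siSFPQ-3 replicate 3 (edgeR adjusted p = 0.0534). The other 21 genes of the list held at most 8 reads in any library, and 4 of them held none.

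Genes of the machinery that builds and attaches the GPI anchor, on which the surface display of IgLON proteins depends, mostly fell on SFPQ knockdown. Of 26 such genes 25 were tested, and 18 fell (35.8% of all genes did) and 2 rose (34.7%), with a median log2 fold change of -0.71, against -0.02 over all genes. PIGK, the catalytic subunit of the GPI transamidase, had 18.2 ± 4.88 CPM with siSFPQ-2 and 14.2 ± 1.61 CPM with siSFPQ-3, against 80.9 ± 4.71 CPM in siCtrl (SD, n = 3 each), a fall of 2.35 (SE 0.10, edgeR adjusted p = 1.57e-17). PIGW fell by 1.47 (SE 0.14, edgeR adjusted p = 4.74e-10), and the transamidase subunits PIGU and GPAA1 fell by 1.47 (SE 0.13, edgeR adjusted p = 1.6e-10) and 1.22 (SE 0.13, edgeR adjusted p = 4.93e-09). PGAP1, which remodels the attached anchor, rose by 1.35 (SE 0.10, edgeR adjusted p = 2.86e-12). PIGP rose by 0.26 (SE 0.11, edgeR adjusted p = 0.0417), a call that was lost with upper quartile factors (edgeR adjusted p = 0.0752), when low-count genes were kept (0.204), when only the groups compared were fitted (0.143) and without any 1 of 6 libraries (0.0636 to 0.384).

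With NONO knockdown 2 of the 25 GPI anchor genes fell, a share near the 9.96% of all genes that did, and none rose (7.47% of all genes), with a median of -0.06. PIGN fell by 0.58 (SE 0.10, edgeR adjusted p = 0.000184), and PIGK fell by 0.32 (SE 0.09, edgeR adjusted p = 0.0153; 0.105 without siCtrl replicate 2). In the libraries labelled ASO-NEAT1 none of the tested genes of the 3 further lists was called.

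**Figure D5:**
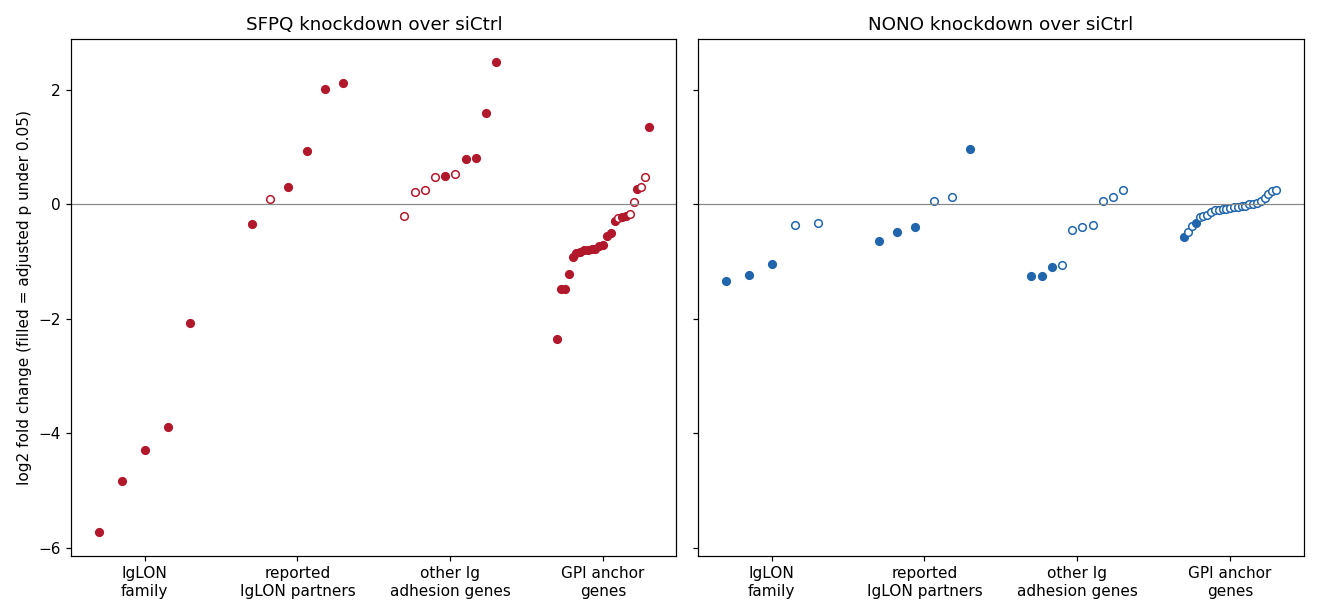
Log2 fold change of the tested genes of the 4 lists for SFPQ knockdown (left) and NONO knockdown (right) over siCtrl, sorted within each list, with filled points for an adjusted p under 0.05. With SFPQ knockdown the 5 IgLON members lie between -5.73 and -2.07, while 4 of 6 tested partners and 5 of 10 other immunoglobulin adhesion genes are filled above 0 and 18 of 25 GPI anchor genes are filled below 0.

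Markers of other cell types were measured beside these results. Of the 10 markers 3 were tested. Their summed CPM per library spanned 16.6 to 21.2 (siSFPQ-2), 13.7 to 19.4 (siSFPQ-3), 17.1 to 20.0 (siNONO-3) and 28.1 to 38.0 (siNONO-4), against 11.1 to 16.9 (siCtrl). COL1A1 made up most of it, and 3 to 5 of the 10 had no read in a group. LYZ and PECAM1 rose on SFPQ knockdown to at most 2.05 CPM in any library, and COL1A1 rose on NONO knockdown (log2 fold change 0.84, edgeR adjusted p = 0.00924). The neuron marker RBFOX3 held 1 read in all 24 libraries. Of the small cell lung cancer markers, SYP rose with SFPQ knockdown and fell with NONO knockdown (log2 fold changes 1.52 and -0.73), while NEUROD1 fell with SFPQ knockdown and rose with NONO knockdown (-1.36 and 1.19), and their part in the results on the IgLON genes was not tested.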

How the data were processed

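Poly(A) RNA of SBC-3 cells was sequenced in 24 libraries, 3 in each of 8 groups, after library preparation with the KAPA RNA HyperPrep kit, per the labels' protocols. The authors deposited whole-number counts of reads per gene, 1 file a library, each with the same 60605 genes, their coordinates and exonic length. These were made on hg38 with cutadapt 4.2, STAR 2.7.5a, Subread 2.0.3 (featureCounts) and DESeq2 1.38.1, tools listed in the submitters' processing notes. Which annotation release was counted, whether strand was used and how multi-mapping reads were handled is not given in the sources used here, and each can shift counts between overlapping or similar genes.

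Gene IDs were matched to symbols for 60463 of 60605 genes. The counts were fitted in 1 model of all 24 libraries with edgeR 4.0.16 in R 4.3.3 (TMM factors, filterByExpr by group, robust quasi-likelihood), which kept 15869 genes, and p-values were adjusted by Benjamini-Hochberg over all of them with a threshold of 0.05. The SE of a log2 fold change was taken from the F statistic. The total counts of a library ran from 4243196 to 14886353. The counting intervals (95%) are exact and, like floors of 3 counts, cover counting error only. No 2 libraries of the same group agreed within sampling noise.

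Alternatives were RLE and upper quartile factors, DESeq2 1.42.0, no filter and a stricter one (1 CPM in 3 libraries), a fit of only the groups compared, the replicate number as a term, and each library left out. Leaving out library number 1 or 3 of every group was chosen after seeing the data. The genes named are the members, the genes that overlap them and the 4 largest called changes per list and direction. The 3 genes of most similar pattern per member, among those with a mean of at least 5 CPM in a group, are added. KIRREL1, a further called rise among the adhesion genes, the targeted genes and the cell type markers are named too. These were not put through the alternatives. The members and lists were chosen with earlier results of these data known. One marker gene is not reported here.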

Additional observations from a re-analysis of the deposited data

Results flagged for a closer look

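Results are given here where the difference between 2 knockdowns or 2 siRNAs was itself called by edgeR's quasi-likelihood test, with no explanation attached. With 3 libraries in a group no search for single outlying libraries was made.

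Between SFPQ and NONO knockdown the log2 difference was -4.49 for NEGR1 (SE 0.45, edgeR adjusted p = 8.57e-10), -3.93 for NTM (SE 0.34, 4.82e-11), -3.78 for OPCML (SE 0.20, 9.6e-16) and -3.57 for LSAMP (SE 0.82, 0.000325). The fitted size rests on few reads for NEGR1, at -5.57 without siSFPQ-3 replicate 2, and for LSAMP, at -5.14 without siSFPQ-2 replicate 3. LSAMP fell below the expression filter when only the groups compared were fitted. All 4 had lower means with each SFPQ siRNA than with either NONO siRNA.

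Among genes that overlap the members, the same difference was -3.71 for OPCML-IT1 (SE 0.33, edgeR adjusted p = 9.11e-11), -4.12 for ENSG00000279189 (SE 0.84, 8.91e-05), -2.56 for ENSG00000285980 (SE 0.69, 0.0016) and -2.12 for ZRANB2-DT (SE 0.54, 0.000844). ENSG00000279189 held 2 reads in the siSFPQ libraries, against 35 in the siNONO libraries, so the size of its fitted value is uncertain.

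Between siRNAs to the same target, OPCML differed in both pairs. It was higher with siSFPQ-2 than with siSFPQ-3 by 1.68 (SE 0.46, edgeR adjusted p = 0.0132). With siNONO-3 it was lower than with siNONO-4, at -1.19 (SE 0.17, edgeR adjusted p = 3.32e-05).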

How the results depend on the processing

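Across 981 alternative values for the members, 958 kept their side of the threshold, 10 lost a call, 13 gained one and none of the called values reversed. For the other named genes 2080 of 2135 kept their side, 49 lost a call and 6 gained one. Members and other named genes together had 82 values that were uncalled both ways and changed sign. These are counted among the values that kept their side. In the fit of only the groups compared, SFPQ knockdown had 3 members called, because LSAMP and IGLON5 fell below its filter and 3 were tested. The same 3 members were tested for SFPQ minus NONO in such a fit. For siSFPQ-2 minus siSFPQ-3 it tested 1 member and for siNONO-3 minus siNONO-4 it tested 3. Leaving out 1 library gave 5 members called for SFPQ knockdown, 2 to 3 for NONO, 4 for SFPQ minus NONO, 0 to 1 for siSFPQ-2 minus siSFPQ-3, 1 for siNONO-3 minus siNONO-4 and 0 for the ASO and control comparisons. Without library number 1 or 3 of every group, an alternative chosen after seeing the data, IGLON5 lost its NONO call (edgeR adjusted p = 0.104 and 0.135). OPCML was highest per kb in 8 of 8 groups also without TMM factors. LSAMP and IGLON5, with 227 and 293 reads in all, are limited most by depth.

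The labels number the libraries of every group alike but do not say that a number marks a shared culture or day. Of 84 pairs of same-numbered libraries 66 correlated above 0.1 (median 0.308, lowest -0.25, against a median of -0.132 for differently numbered ones), and 22 of 24 libraries correlated best with their own number, a hint from the data and not from the design. With the replicate number as a block, siNONO-3 minus siNONO-4 had 2 members called, NTM being added (-0.66, edgeR adjusted p = 0.00886), and the other members called were 5 for SFPQ knockdown, 3 for NONO, 4 for SFPQ minus NONO and 1 for siSFPQ-2 minus siSFPQ-3. Single siRNAs gained IGLON5 with siSFPQ-2 (0.0258), siNONO-3 (0.0392) and siNONO-4 (0.0228), NTM with siNONO-3 (0.00246) and OPCML with siNONO-4 (0.00558, all edgeR adjusted p). Over all genes the block called 4262 for NONO, against 2767 without it, 2733 against 1590 for siNONO-3 minus siNONO-4 and 351 against 72 for ASO-Ctrl minus siCtrl.

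Other counts over all genes that moved by more than 1.5 times were 1661 for NONO without siCtrl replicate 1 and 1779 without library number 1 of each group, 1495 against 2328 for siSFPQ-2 minus siSFPQ-3 without siSFPQ-2 replicate 3, and 951 to 1029 for siNONO-3 minus siNONO-4 without siNONO-3 replicates 2 or 3 or siNONO-4 replicates 1 or 3. For ASO-Ctrl minus siCtrl they were 153 with no filter, 134 by DESeq2, 42 with only the groups compared and 21 to 42 without 1 of siCtrl replicates 1 or 3 or ASO-Ctrl replicates 1 or 2. The NEAT1 ASOs had 3 genes called with no filter and 19 without ASO-Ctrl replicate 3, and the ASOs against each other 2 with no filter, against 0. With upper quartile factors 51.4% of the calls in siSFPQ-2 minus siSFPQ-3 were higher, against 41.3%. The cause of these shifts was not tested.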
